A study of Schizosaccharomyces pombe with 2 samples.

Results

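Phosphate acquisition in fission yeast, Schizosaccharomyces pombe, was followed through 4 genes: tgp1 (SPBC1271.09), pho84 (SPBC8E4.01c), pho1 and pho4 (SPBC428.03c). They were found by name among the 5005 gene probe names of a spotted array, and all 4 were present and measured on both arrays. Each of 2 arrays compared a wild-type strain carrying pDUAL-Ssn6, a plasmid that expresses the corepressor subunit Ssn6, with the same wild type carrying the empty pDUAL plasmid. Both cultures grew logarithmically in minimal medium without uracil at 30 °C, which keeps selection on the plasmid. The labels state neither the promoter on the plasmid nor how much phosphate and thiamine the medium held. Per the labels, the Ssn6 culture was labelled with Cy3 on array 1 and with Cy5 on array 2, and the design text speaks of 2 independent RNA preparations without assigning them to arrays. The SD printed with a ratio is that of 2 arrays only and may be technical. The p-values and 95% intervals come from limma, a test that combines a gene's own spread with a spread estimated over all genes. The shared spread weighed more, with 7.53 prior against 1 residual degrees of freedom.

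Cells take up phosphate from outside in more than one way. Secreted acid phosphatases free it from organic esters, and transporters in the plasma membrane carry it, or small phosphorylated molecules, into the cell. In S. pombe the transcription factor Pho7 switches on pho1, pho84 and tgp1 when phosphate is scarce, and in rich medium transcription of a long noncoding RNA upstream of each of them keeps it low. The pho4 gene encodes an acid phosphatase whose gene is best known for its repression by thiamine. Ssn6 works with Tup11 and Tup12 as a general corepressor of transcription.

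The colours are called channel A and channel B in the files, with neither dye nor culture named. The overexpressed gene, ssn6, was 6.16-fold to 8.86-fold brighter in channel B in its 4 spots, with a normalized log2 ratio (B over A, as throughout) of 2.04 ± 0.19 (SD, n = 2). Channel B is therefore likely the Ssn6 culture on both arrays. Were channel A always the same dye, the labelled dye swap would turn the sign between arrays, yet ssn6 and each of the 4 phosphate genes had the same sign on both. Directions are given by channel for that reason, and dye bias may not cancel in the means. With the sign of array 1 turned, 0 genes passed in limma (6 at an unadjusted p under 0.05), and none of the 4 phosphate genes did. This loss follows from the turning, since ratios alike on both arrays then cancel in the mean and widen the spread. It therefore does not tell which reading of the channels holds. The tup12 gene had no matched probe, and tup11 had a log2 ratio of 0.26 ± 0.14 (adjusted p = 0.265 in limma).

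Among the 4 genes, tgp1 was higher in channel B and the other 3 were lower after loess normalization, which removes the trend of the ratio with spot brightness. The difference in tgp1 stood in the signals as scanned. The scanned signals of pho84 and pho4 were 0.961-fold to 1.36-fold of channel A in channel B, and the genes passed as lower only after the brightness correction. The pho1 signals were lower in channel B in every spot before any correction, by less than after it.

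**Figure D1:**
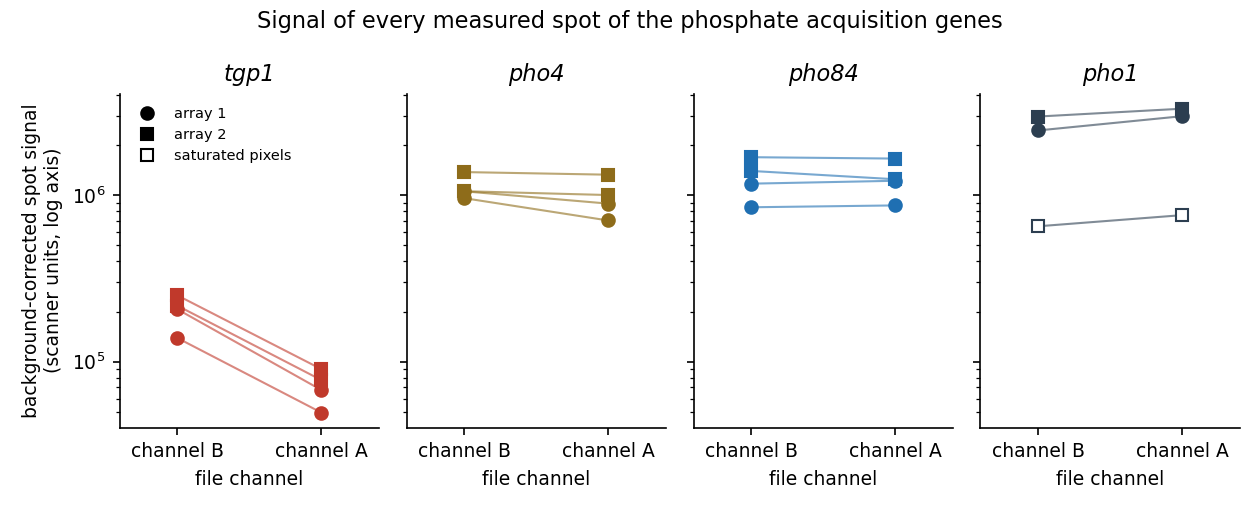
Background-corrected signal of each measured spot in channel B and channel A, on a log axis in scanner units; each line joins the channels of one spot, circles are array 1 and squares array 2, and open squares mark the pho1 spot with saturated pixels. All 4 tgp1 spots fall toward channel A, by 2.78-fold to 3.06-fold, while the lines of pho84 and pho4 are nearly flat and the 3 lines of pho1 climb slightly.

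The transporter gene tgp1 takes up glycerophosphodiesters, phosphate-containing breakdown products of membrane lipids. On array 1 its spots had 138714 and 206398 signal units in channel B, against 49409 and 67507 units in channel A. On array 2 they had 250083 and 216859 units in channel B, against 90104 and 77466 units in channel A. Every channel B spot was above every channel A spot, so the channels did not overlap on either array. The share of all genes with channels apart in this way was not determined, here or for the genes below.

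Before normalization the 4 tgp1 spots were 2.81-fold, 3.06-fold, 2.78-fold and 2.80-fold brighter in channel B. The brightness correction subtracted only 0.13 to 0.33 on the log2 scale. The normalized log2 ratio was 1.41 on array 1 and 1.16 on array 2. Its mean was 1.28 ± 0.18 (SD, n = 2), which is 2.43-fold higher in channel B, with a 95% interval of 0.90 to 1.66. The gene passed the test (limma with Benjamini-Hochberg adjustment over 4853 genes, adjusted p = 0.00077) and stood at rank 53 from the top of those genes.

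Duplicate spots of tgp1 differed by 0.10 on array 1 and by 0.03 on array 2 on the log2 scale. The median difference between duplicate spots over all genes was 0.19 on array 1 and 0.14 on array 2, so the tgp1 spots lay closer together than the typical pair. None of them held saturated pixels. Across the 11 other ways of processing that kept the sign of both arrays, the tgp1 log2 ratio stayed between 1.17 and 1.32. It lost its call in one of them, the authors' deposited table, with a ratio of 1.30 and an adjusted p of 0.0745, where 0 of 4810 genes passed.

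The pho84 gene encodes the plasma membrane transporter of inorganic phosphate. On array 1 its spots had 845281 and 1171502 units in channel B, against 867231 and 1219341 units in channel A. On array 2 they had 1689404 and 1397192 units in channel B, against 1657272 and 1245376 units in channel A. The channels overlapped throughout, and the unnormalized fold of channel B over channel A ran from 0.961 to 1.12.

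These spots ranked 131 to 387 in brightness on their arrays, at brightness percentiles from 96.1 to 98.7 of gene spots. Bright spots leaned to channel B as a group. The median unnormalized log2 ratio of the brightest 5% was 1.22 on array 1 and 1.08 on array 2, against 0.19 and 0.28 for all gene spots on the same arrays. Not every bright spot leaned so. On array 1 an eft1 spot had 1.65 and an hhf2 spot -0.19. These were alike in brightness to each other, but brighter than the pho84 spots. Whether the lean follows brightness or the kinds of genes that are bright was not tested. The correction at the pho84 spots was 0.99 to 1.18.

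After it the pho84 log2 ratio was -1.13 on array 1 and -0.94 on array 2, with a mean of -1.04 ± 0.14 (SD, n = 2; adjusted p = 0.00211 in limma). That is 2.05-fold lower in channel B. With each array centred on its median in place of loess, the log2 ratio was -0.21 and the gene did not pass (adjusted p = 0.38). With loess inside each printed block it was -0.79 and passed (adjusted p = 0.00808).

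The pho1 gene encodes the main secreted acid phosphatase. Its spot on array 1 had 2444690 units in channel B, against 2977909 units in channel A, and its second spot there had no signal. On array 2 the spots had 649826 and 2963611 units in channel B, against 758133 and 3303141 units in channel A. Channel B was dimmer within each of the 3 spots, at 0.821-fold, 0.857-fold and 0.897-fold of channel A.

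The 2 brighter of these spots were the brightest of their printed blocks and stood at ranks 10 and 2 among all gene spots of arrays 1 and 2, at the far end of the brightness scale. The dimmer spot, at rank 581 of array 2, held saturated pixels, with a saturation factor of 0.321 where 1 means none. The correction was 1.66 on array 1, and 0.73 and 1.34 for the saturated and the unsaturated spot of array 2. The duplicate spots of array 2, with unnormalized log2 ratios of -0.22 and -0.16, were thereby moved apart to -0.95 and -1.50.

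The normalized pho1 log2 ratio was -1.94 on array 1 and -1.23 on array 2. Its mean of -1.58 ± 0.50 (SD, n = 2) is 2.998-fold lower in channel B and passed (adjusted p = 0.00071 in limma). Without the saturated spots it was -1.59. With median centring it was -0.47 (adjusted p = 0.0523), with loess inside blocks -0.36 (adjusted p = 0.106), and neither passed.

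The pho4 gene encodes the thiamine-repressible acid phosphatase. On array 1 its spots had 1054058 and 958673 units in channel B, against 889028 and 704052 units in channel A. On array 2 they had 1375179 and 1055435 units in channel B, against 1326165 and 1000976 units in channel A. Channel B was the brighter one within every spot, by 1.04-fold to 1.36-fold.

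Those spots lay at brightness percentiles from 95.9 to 97.9, and the correction was 0.88 to 1.06. The normalized log2 ratio was -0.67 on array 1 and -0.88 on array 2, with a mean of -0.77 ± 0.15 (SD, n = 2), which is 1.71-fold lower in channel B (adjusted p = 0.00909 in limma). The sign of pho4 thus depended on the correction. Its log2 ratio was -0.03 with median centring (adjusted p = 0.928) and 0.05 with loess inside blocks (adjusted p = 0.864).

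**Figure D2:**
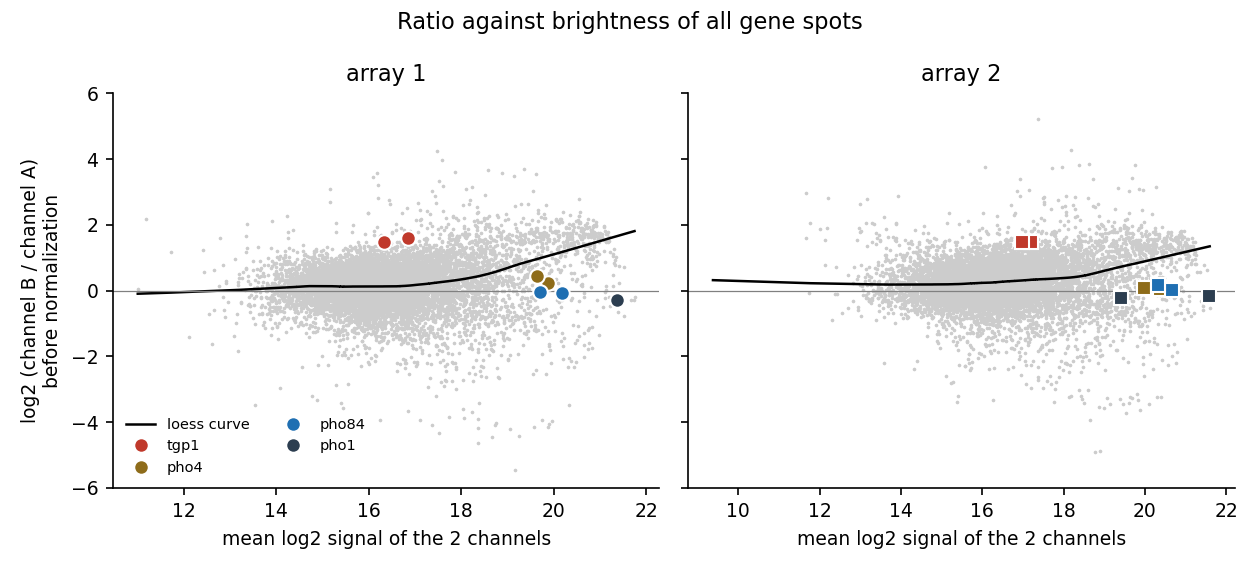
Log2 ratio (B over A) before normalization against the mean log2 signal of the channels, for all gene spots (grey), with the loess curve in black and the 4 genes in colour, circles on array 1 and squares on array 2. The curve climbs at high brightness, so the spots of pho84, pho4 and pho1, near 0 before normalization, lie well below it, while the tgp1 spots lie above it in the middle of the range.

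All 4 genes passed the test, 1 higher and 3 lower in channel B. Over all genes tested 28.2% passed, 11.5% higher and 16.7% lower, and the median log2 ratio was 0.01. From high to low the normalized ratios ran tgp1, pho4, pho84, pho1. The step from tgp1 to the next gene was 2.08 on array 1 and 2.03 on array 2, and the 95% intervals did not overlap. The intervals of pho4 (-1.15 to -0.40) and pho84 (-1.41 to -0.66) overlapped, as did those of pho84 and pho1 (-2.05 to -1.12). Overlap of intervals does not decide whether these neighbours in the order differ, and the differences between them were not tested. The order under loess was the same on both arrays. For pho4, pho84 and pho1 the ratios were -0.67, -1.13 and -1.94 on array 1, and -0.88, -0.94 and -1.23 on array 2. The tgp1 ratio was the highest of the 4 also with median centring and with loess inside blocks, where the other 3 lay between -0.79 and 0.05. The order below it was not kept, since with loess inside blocks pho84 (-0.79) lay below pho1 (-0.36). The hybridised RNA came from whole cultures, so fewer cells with a transcript and less transcript per cell cannot be told apart.

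**Figure D3:**
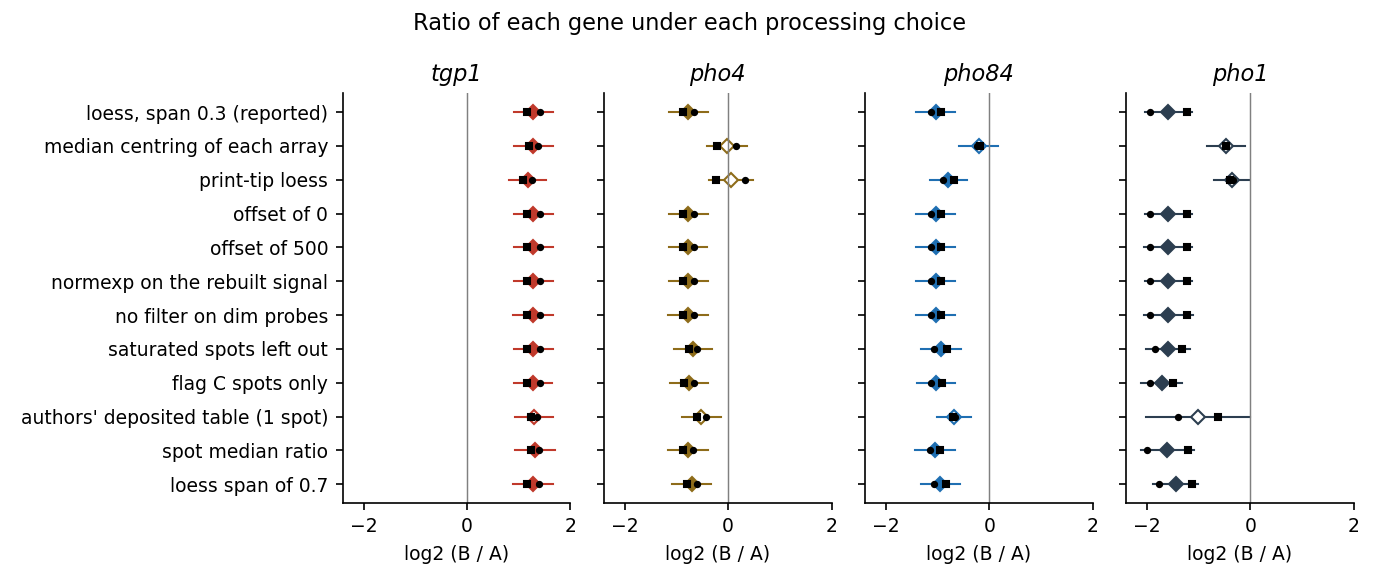
Log2 ratio (B over A) of each gene under each way of processing, with diamonds for the mean of 2 arrays (filled where the adjusted p is under 0.05), lines for the 95% interval, circles for array 1 and squares for array 2. The tgp1 mean stays between 1.17 and 1.32, while pho4, pho84 and pho1 move toward 0 with median centring.

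The genes whose pair of array ratios was closest to each member were sought by Euclidean distance over the 2 arrays, which are only 2 points per gene. Closest to tgp1 were tri1 (1.27 ± 0.15), pps1 (1.28 ± 0.14) and dut1 (1.25 ± 0.11), with distances from 0.033 to 0.084. Closest to pho84 were mpf2 (-1.02 ± 0.14), the succinyl-CoA ligase gene lsc2 (-1.04 ± 0.16) and mus7 (-1.05 ± 0.12). Closest to pho1 were the repeat family probe wtf2-pseudo (-1.56 ± 0.54), the iron-sulfur assembly gene isa1 (-1.65 ± 0.49) and amf1 (-1.56 ± 0.59). Closest to pho4 were SPCC24B10.03 (-0.80 ± 0.16), SPCC569.04 (-0.75 ± 0.12) and the succinate dehydrogenase gene sdh2 (-0.77 ± 0.19). These distances used the loess ratios. With median centring pho84 (-0.21) lay apart from mpf2 (-1.08), lsc2 (-0.95) and mus7 (-1.09). So did pho1 (-0.47) from wtf2-pseudo (-1.61), isa1 (-1.40) and amf1 (-1.39). The same held for pho4 (-0.03) against SPCC24B10.03 (-0.86), SPCC569.04 (-0.81) and sdh2 (-0.71). The tgp1 ratio was then 1.28, against 1.29 for pps1, 1.25 for dut1 and 1.77 for tri1.

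Among other genes of phosphate handling some passed the test and more did not, as among all genes tested. Whether the shares differ was not tested. Of 14 genes for phosphate sensing, storage and signalling, 13 were tested, of which 2 were higher in channel B, 3 lower and 8 did not pass, or 38.5% called, against 28.2% of all genes tested. The list median was -0.21. The same counts were found with loess inside blocks, and with median centring 2 were higher and 4 lower.

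The higher ones were vtc4 and nrf1, both subunits of the vacuolar complex that makes polyphosphate, the cell's phosphate store. The nrf1 spots had 1326781 to 1959572 units in channel B, against 309259 to 603887 units in channel A, with no overlap. Their ratio was 0.89 ± 0.25 (adjusted p = 0.00547), 1.56 with median centring. The vtc4 spots had 522957 to 703855 units in channel B, against 184877 to 264492 units in channel A, again apart, with a ratio of 0.85 ± 0.35 (adjusted p = 0.00929).

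The lower ones were pho841, psl1 and pho8. The pho841 probe (SPBC1683.01) had a ratio of -0.84 ± 0.15 (adjusted p = 0.00603). The cyclin gene psl1 had -0.68 ± 0.02 (adjusted p = 0.0145), and the vacuolar alkaline phosphatase gene pho8 had -0.76 ± 0.35 (adjusted p = 0.0147). As scanned, both pho8 spots of array 2 were 1.01-fold of channel A in channel B. Those of array 1 were 0.735-fold and, in a much dimmer spot, 0.532-fold. With median centring pho8 still passed in limma (-0.56, adjusted p = 0.0428). The activator gene pho7 had a log2 ratio of -0.15 ± 0.21 (adjusted p = 0.549), and its arrays had -0.30 and 0.0037. The kinase gene csk1, a negative regulator of pho1, had -0.43 ± 0.001 (adjusted p = 0.0766), and it passed with median centring (-0.49, adjusted p = 0.0457). The inositol pyrophosphate synthase gene asp1 had 0.02 ± 0.04.

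A further 3 genes carrying pho symbols in the gene table were looked up after the values had been seen. The pho842 probe had 815687 to 895716 units in channel B, against 1149385 to 1445758 units in channel A, so its channels did not overlap. Its log2 ratio was -1.65 ± 0.24 (adjusted p = 0.000227), and -0.88 with median centring (adjusted p = 0.00224). The pho2 probe had -1.17 ± 0.14 (adjusted p = 0.00112), and -0.56 with median centring. The pho843 probe had -0.06 ± 0.29 (adjusted p = 0.832).

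The long noncoding RNAs upstream of pho1, pho84 and tgp1 are controlled through transcription termination and RNA elimination factors. Of 12 such factors 11 were tested, and 2 were higher, 0 lower and 9 did not pass in limma, or 18.2% called, against 28.2% of all genes tested, with a list median of 0.26. Among the higher ones was duf89, a phosphatase gene (0.70 ± 0.07, adjusted p = 0.0129). The phosphatase gene ssu72 had 0.49 ± 0.09 (adjusted p = 0.0535), and the termination factor gene seb1 had -0.49 ± 0.16 (adjusted p = 0.055). With loess inside blocks ssu72 (0.60) and seb1 (-0.57) both passed, and the list then had 3 higher and 1 lower. With only spots of flag C it had 4 higher and 1 lower.

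For the thiamine side of pho4, 5 of 7 listed genes were tested, and 1 was higher, 1 lower and 3 did not pass, which is 40% called, against 28.2% of all genes tested. Thiamine synthesis gene thi4 had a log2 ratio of 1.08 ± 0.18 (adjusted p = 0.00181), with 565831 to 1310009 units in channel B, against 218996 to 359545 units in channel A. The transcription factor gene thi5 had -0.85 ± 0.16 (adjusted p = 0.00592), and the thiamine regulator gene thi1 had -0.26 ± 0.01 (adjusted p = 0.256). The thiamine-repressed gene nmt1 had -0.18 ± 0.24 (adjusted p = 0.462), and 3 of its 4 spots held saturated pixels. The thi2 probe was not well above background on array 2 and was left out, and bsu1 had no probe with an unambiguous name.

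Genes next to the members moved both with and against them. The gene table places pho84 and pho1 next to each other, and tgp1 and pho4 elsewhere. Of the 12 protein-coding genes that are the nearest 2 on either side of a member, 11 were tested, and 1 was higher in channel B, 7 lower and 3 did not pass. This is 72.7% called, against 28.2% of all genes, with a list median of -0.70.

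Next to tgp1, SPBC1271.08c was strongly lower in channel B. Its spots had 77255 to 138875 units in channel B, against 913136 to 1131630 units in channel A. The signals were 8.09-fold to 12.2-fold apart before normalization, and the log2 ratio was -3.74 ± 0.26 (adjusted p = 3.76e-06). The gene on the other side of tgp1, SPBC1271.10c, had -0.62 ± 0.10 (adjusted p = 0.0215), and the next ones out had -1.15 ± 0.12 (SPBC1271.07c, adjusted p = 0.00116) and -0.10 ± 0.06 (pet802, adjusted p = 0.675). Thus tgp1 was the only one of these 5 genes in a row with a ratio above 0 under loess, and also with median centring and with loess inside blocks.

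Next to pho4, the branched-chain aminotransferase gene eca39 had -2.77 ± 0.31 (adjusted p = 1.91e-05), with 657459 to 1293208 units in channel B, against 1897339 to 3547063 units in channel A. With median centring it had -1.79, and 1 of its 4 spots held saturated pixels. The arginine synthesis gene arg12 had -1.41 ± 0.22 (adjusted p = 0.000487), and -0.52 with median centring. On the same stretch apq12 was higher (0.58 ± 0.03, adjusted p = 0.0273), and the nucleoporin gene nup107 did not pass (0.38 ± 0.19).

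Beside pho84, ecl3 had no probe, and SPBC8E4.03 beyond it had -1.32 ± 0.37 (adjusted p = 0.00107). Beside pho1, fub2 had 0.75 on array 1 and -0.33 on array 2 and did not pass (adjusted p = 0.563), and nrg1 had -0.70 ± 0.20 (adjusted p = 0.0149).

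**Figure D4:**
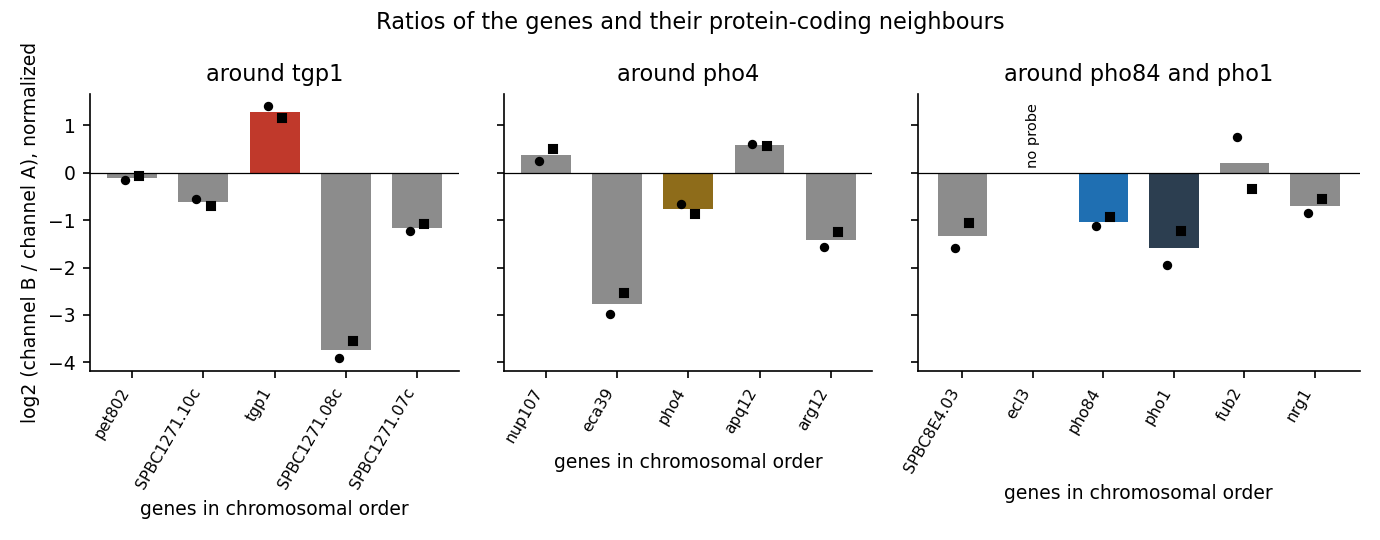
Normalized log2 ratio (B over A) for each member (coloured) and its nearest protein-coding genes (grey) in chromosomal order; bars are means of 2 arrays, circles array 1 and squares array 2. The tgp1 bar points up between neighbours at -0.62 and -3.74, whereas pho84 and pho1 point down together under loess. With median centring neither pho84 (-0.21) nor pho1 (-0.47) passed.

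The gene table also lists long noncoding RNAs that overlap the members, among them nc-pho1 over pho1, prt2 over pho84 and nc-tgp1 at tgp1, and the gene SPBC1271.10c overlaps tgp1. No source used here gives the probe sequences or the strand they report. Signal of a gene and of an RNA that overlaps it may therefore be mixed at one probe.

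Of these noncoding RNAs prt2 had a probe of its own, found through its older name SPBC8E4.02c and looked up after the values had been seen. Its spots had 51319 and 64318 units in channel B, against 100538 and 188278 units in channel A, on array 1. On array 2 they had 65211 and 83498 units in channel B, against 171290 and 181626 units in channel A. Every channel B spot was below every channel A spot, by 1.96-fold to 2.93-fold within a spot, and none was saturated.

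The normalized log2 ratio of prt2 was -1.39 on array 1 and -1.55 on array 2, with a mean of -1.47 ± 0.11 (SD, n = 2; adjusted p = 0.000316 in limma). It was -1.49 with median centring (adjusted p = 8.19e-05) and -1.55 with loess inside blocks (adjusted p = 0.000535). Thus prt2 was lower in channel B before any correction as well as after it, whereas the pho84 signals differed little between channels before it. How much of the prt2 signal comes from its overlap with pho84 was not tested.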

How the data were processed

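The deposited files of the scanner hold, per the file headers, an intensity per spot for channels A and B, already corrected for background by the authors. Per the file headers they also hold the background intensity, a linear ratio of channel A over channel B by mean and by median, and a saturation factor, a fraction from 0 to 1. The authors' deposited table holds lowess-normalized values on a log10 scale. Set against the scanner files by spot number, its earlier rows, mostly 1 spot per probe, followed log10 of B over A (r = 0.913 on array 1 and 0.939 on array 2). The later rows did not (r = 0.036 and 0.057) and were not used. Its centring is unknown, with a column median of 0.01 on both arrays, and its direction was taken from that match.

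Here, 50 was added to each signal, in place of the background correction that arrays otherwise need. Log2 ratios (B over A) were then corrected by loess array by array (span 0.3, control spots at weight 0), spots of a probe were averaged, and the mean of 2 arrays was tested against 0 with limma 3.58.1 in R 4.3.3, two-sided, at an adjusted p of 0.05. Probes were left out where, on an array, neither channel reached the 0.95 quantile of the negative controls. Of 5005 gene probe names, 4853 were tested, and 152 were dim or unmeasured. Gene names were taken from ASM294v3 annotation (matching 3466 names through locus tags, 943 through symbols and 366 through synonyms, with 230 unmatched), and neighbours and overlaps from the same annotation. The probe aps1 matches the symbol of one gene and a synonym of another. Of 10014 gene spots, 9801 had signal on array 1 and 9994 on array 2. The number of arrays limits the precision, with 1 residual and 7.53 prior degrees of freedom. With 2 arrays the smallest p of an exact sign-flip test is 0.5. The steps were tested on simulated data. There the brightness trend was shared by all spots, and the changed genes were drawn at random. The simulation therefore cannot tell whether the correction suits bright genes such as pho84, pho1 and pho4.

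The members and gene lists were chosen with earlier results of these data known. The text names the members, listed genes that passed (1 of them is not reported here) and up to 4 others of each list, all measured neighbours, the 3 genes nearest to each member, and prt2, added after its values were seen. A list by protein similarity was not made. The alternatives were other normalizations, offsets, background correction, filters, spot selections, the authors' table, the sign of array 1 and leaving out each array. The spot median ratio and a loess span of 0.7 were chosen after seeing the data.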

Additional observations from a re-analysis of the deposited data

How the results depend on the processing

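The tgp1 log2 ratio kept its direction and its call in 10 of the 11 alternatives that leave both signs as they are, between 1.17 and 1.32. Median centring ended the calls of pho1 (-0.47), pho84 (-0.21) and pho4 (-0.026). Loess inside blocks ended those of pho1 (-0.36) and pho4, which turned to 0.048. These genes passed in the other alternatives except the authors' deposited table. In the authors' deposited table tgp1 had 1.30, pho1 -1.01, pho84 -0.68 and pho4 -0.51, and 0 of 4810 genes passed in limma, against 1368 of 4853 here. At an unadjusted p under 0.05 stood 1783 genes there and 2022 here. Leaving out an array gave ranges of 1.16 to 1.41 for tgp1, -1.94 to -1.23 for pho1, -1.13 to -0.94 for pho84 and -0.88 to -0.67 for pho4, as single values without a test.

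Turning the sign of array 1, as the labelled dyes would ask for if channel A were one dye throughout, left 0 genes past the threshold in limma and 6 at an unadjusted p under 0.05. A mean with 1 array turned reflects only how far the arrays differ. The turned values below therefore give no direction for a gene and do not test its call. The ratios were then 0.36 for pho1, 0.097 for pho84, -0.13 for tgp1 and -0.10 for pho4. Also turned to a value above 0 were pho8 0.25, psl1 0.012, pho7 0.15, csk1 0.00086, thi5 0.11, nrg1 0.14, SPBC8E4.03 0.26, pet802 0.043 and SPBC1271.08c 0.18. So were SPBC1271.07c 0.083, eca39 0.22, arg12 0.15, pho842 0.17, pho2 0.099, wtf2-pseudo 0.38, isa1 0.35, amf1 0.42 and mpf2 0.10. The same holds for lsc2 0.11 and mus7 0.087. Turned to a value below 0 were nrf1 -0.18, asp1 -0.030, duf89 -0.052, fub2 -0.54, apq12 -0.022, tri1 -0.10, pps1 -0.097 and dut1 -0.080. With median centring nmt1 had 0.025, and with loess inside blocks asp1 had -0.071. Over single arrays pho7 ran from -0.30 to 0.0037, asp1 from -0.0069 to 0.052, fub2 from -0.33 to 0.75 and pho843 from -0.26 to 0.15. Of the calls over all genes, 47.7% of 1625 were higher in channel B with median centring, against 40.6% of 1368 here. The cultures were paired within each array, whose ratio is itself the comparison of both. No further pairing was possible because the arrays form 1 group.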
